A study of Homo sapiens with 6 samples.

Results

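STAT proteins (signal transducers and activators of transcription) carry a signal from cytokine receptors to DNA, and the level of their messenger RNA was examined in IMR90 human lung fibroblasts given oncostatin M. The family members considered were STAT2, STAT3, STAT4, STAT5A, STAT5B and STAT6, each to be represented, among probe sets assigned exactly 1 gene symbol, by the brightest on average over the 6 arrays. Of these 6 symbols, 5 had such a probe set, out of 18417 genes tested, and each of the 5 had only 1, so no member offered a choice between probe sets. STAT2 had none in the table used and was not analysed here. The oncostatin M group was 3 samples of IMR90 cells stimulated with recombinant human oncostatin M at 10 ng/mL, given once, and the control group was 3 samples of untreated IMR90 cells. All 6 came from the same fibroblast line, and the sources used here do not give the time between the dose and the harvest. Total RNA of each sample was hybridised to 1 Affymetrix array, and the deposited values are expression levels on the log2 scale, on which a difference of 1 is a change of 2-fold. Nothing in the labels says that the replicates were separate cultures, so the p-values below rest on the spread among these samples, and that spread may be technical alone.

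Oncostatin M belongs to the interleukin-6 family of cytokines. Its receptors hold JAK kinases, which phosphorylate STAT proteins on a tyrosine near the C-terminus, and the phosphorylated STATs pair, enter the nucleus and bind DNA, where most of them recognise a palindrome of TTC and GAA with a short spacer. STAT3 is the member best known for answering the interleukin-6 family, and the STAT3 gene is itself among its known targets. STAT5A and STAT5B answer growth hormone, prolactin and interleukin-2, STAT6 answers interleukin-4 and interleukin-13, and STAT4 answers interleukin-12 and is best known from lymphocytes. STAT2 acts downstream of type I interferon in ISGF3, a complex that contains the DNA-binding protein IRF9. Arrays measure the messenger RNA of these factors and say nothing of their phosphorylation.

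The arrays had medians between 6.54 and 6.66 and pairwise correlations between 0.989 and 0.997, and oncostatin M 1 departed most from its group, with a mean absolute deviation of 0.133 against 0.0635 to 0.0881 on the other 5 arrays. All 14 fibroblast markers examined lay, in oncostatin M samples, above the 95th percentile of 408 olfactory receptor and keratin-associated protein genes, which fibroblasts are expected not to express, and 13 of 14 did so in control samples. Of 15 leukocyte markers, 3 lay above it in either group (NKG7, CD68 and SPI1), while the pan-leukocyte gene PTPRC averaged 3.86 in oncostatin M samples and 3.83 in control samples. Summed levels of the 15 leukocyte markers ran from 83.4 to 85.2 in oncostatin M samples and from 82.5 to 84.6 in control samples, so the groups overlapped. Those of 8 endothelial markers (47.4 to 49.3 in oncostatin M samples, 47.0 to 48.1 in control samples) and 10 epithelial markers (60.8 to 64.0 in oncostatin M samples, 61.1 to 61.8 in control samples) overlapped too, with TEK, an endothelial receptor, 0.47 higher without passing (limma adjusted p = 0.182) and with groups that did not overlap. The sums of the 14 fibroblast markers did not overlap, at 157.1 to 159.0 in oncostatin M samples and 156.1 to 156.8 in control samples. Among fibroblast markers LUM (0.75) and PDGFRA (0.39) were higher and PDGFRB (-0.37) was lower after oncostatin M, and among epithelial markers KRT18 (0.52) was higher, with limma adjusted p between 0.019 and 0.0337. LUM, PDGFRA, PDGFRB and KRT18 lost their calls in 3, 4, 5 and 3 of 6 fits that left out an array (adjusted p up to 0.157). The part of these shifts in the results below was not tested.

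STAT3 messenger RNA was higher after oncostatin M, and it was the only one of the 5 members past the threshold of 0.05 on adjusted p (limma, adjusted over all 18417 genes). Across all genes, 3.42% passed that threshold in either direction, 1.72% being higher and 1.70% lower. STAT3 (probe set 8015607) measured 11.57, 11.45 and 11.52 in the 3 oncostatin M samples, against 11.03, 11.08 and 11.08 in the 3 control samples. Every oncostatin M sample was above every control sample, and the lowest of them exceeded the highest control by 0.36. Means were 11.51 ± 0.06 after oncostatin M and 11.06 ± 0.03 in control (SD, n = 3 each), a change of 0.45 (SE 0.07, adjusted p = 0.0114), or 1.36-fold with a 95% confidence interval of 1.22 to 1.52. The rise was modest beside others on the array: by size it ranked at 269 of the 316 genes that were higher, whose median change was 0.66. The change lay between 0.42 and 0.48 whichever array was left out, but leaving out a control sample ended the call (adjusted p = 0.0784 without control 1, 0.0531 without control 2 and 0.0508 without control 3). In bulk samples, more STAT3 RNA per cell and a larger share of cells that express it cannot be told apart.

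The 250 bases before the STAT3 start site are shown because the STAT3 gene is a known target of its own protein. They lie at chr17:42388443-42388692 on the minus strand (RefSeq, GRCh38.p14) and are written 5′ to 3′ in the direction of the gene. Capitals mark the match to TTCNNGAA, a palindrome with a spacer shorter than the usual one.
STAT3: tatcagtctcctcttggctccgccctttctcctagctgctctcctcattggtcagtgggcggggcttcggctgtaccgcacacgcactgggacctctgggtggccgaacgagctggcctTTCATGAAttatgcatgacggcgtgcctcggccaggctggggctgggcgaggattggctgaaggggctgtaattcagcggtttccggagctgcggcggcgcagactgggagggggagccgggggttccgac
The match covers bases 131 to 124 before the start site. In windows of the same length, 6.62% of 35116 RefSeq promoters held TTCNNGAA, 6.57% held TTCNNNGAA, the usual form, and 5.38% held TTC and GAA with 4 bases between them, the spacing that STAT6 favours. All 3 motifs read the same on both strands. The 5 members had 8 annotated windows between them, and 0 of these held TTCNNNGAA, while 3 held TTCNNGAA, those of STAT3 and STAT4. These windows are too few to set beside the shares of all promoters. A match describes the letters and does not show that a factor binds.

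STAT3 lies on chromosome 17 beside STAT5A and STAT5B, with no other protein-coding gene starting between them, and these neighbours did not pass the test. STAT5A (probe set 8007212) measured 6.54, 6.20 and 6.26 in oncostatin M samples, against 6.22, 6.27 and 6.13 in control samples. The groups overlapped, and the value on oncostatin M 1 stood above all the others. The change was 0.13 (SE 0.10, adjusted p = 0.81), with a 95% confidence interval of -0.10 to 0.36, and it was 0.03 without oncostatin M 1. STAT5A means (6.33 after oncostatin M, 6.21 in control) lay below the 95th percentile of presumably silent genes (6.77 and 6.74). Its change therefore says little. STAT5B (probe set 8015590) measured 8.79, 8.89 and 8.93 in oncostatin M samples, against 8.87, 8.96 and 9.01 in control samples. It was the only member below 0, with overlapping groups and a change of -0.08 (SE 0.08, adjusted p = 0.877, interval -0.25 to 0.10). The transcripts of STAT5A and STAT5B are closely related, and probes of a gene-level array may not separate them fully, so each value is uncertain to that extent. Differences between transcript variants of a member cannot be read from 1 probe set.

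For comparison with STAT3, the window before the STAT5B start site (chr17:42276392-42276641, minus strand, RefSeq, GRCh38.p14) is shown as that of the member whose change differed most from it. It held 0 matches to the 3 spacings, as did the window of STAT6, and a relation of matches to changes was not tested.
STAT5B: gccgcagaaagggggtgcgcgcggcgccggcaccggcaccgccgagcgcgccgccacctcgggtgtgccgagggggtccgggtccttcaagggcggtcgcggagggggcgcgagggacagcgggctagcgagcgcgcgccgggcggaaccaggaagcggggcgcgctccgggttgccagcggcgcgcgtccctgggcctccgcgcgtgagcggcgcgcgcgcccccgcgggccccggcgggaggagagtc
Its bases were 82.0% G or C, compared with 64.4% in the STAT3 window. Of the 3 annotated STAT5A windows, 1 held a match, to the form with 4 bases between TTC and GAA, at bases 229 to 220 before its start site. It is printed with its flanks (chr17:42287198-42287231, plus strand, RefSeq, GRCh38.p14), the match in capitals.
STAT5A: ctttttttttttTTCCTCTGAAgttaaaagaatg

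STAT6 (probe set 7964360), the mediator of interleukin-4 signals, measured 9.91, 9.85 and 9.93 in oncostatin M samples, against 9.67, 9.78 and 9.83 in control samples. The groups did not overlap, but by a gap of only 0.02, and the change of 0.14 (SE 0.07, adjusted p = 0.601, interval -0.03 to 0.30) did not pass the test. Across all genes, groups did not overlap in 18.0%, and in 7.43% oncostatin M lay above control, so the 3 members that share that order (STAT3, STAT4 and STAT6) are read beside that share.

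STAT4 (probe set 8057771) gave the next largest change after STAT3, at a low level and with more spread. It measured 5.66, 5.37 and 5.30 in oncostatin M samples, against 5.01, 5.21 and 5.21 in control samples. The groups did not overlap, with oncostatin M 1 the highest and control 1 the lowest. The change was 0.30 (SE 0.11, limma adjusted p = 0.294) with an interval of 0.05 to 0.55, and it was 0.19 without oncostatin M 1. Before adjustment its p was 0.0254 in limma, and 11.6% of all genes had an unadjusted p under 0.05. The files hold no calls of detection. The mean of STAT4 lay above 77.0% of the 408 presumably silent genes after oncostatin M and above 70.6% in control. That of STAT5A lay above 90.0% and 89.7%, so both genes were within the range of silent genes, below their 95th percentile. The other 3 members lay above at least 99.5% in either group. Both annotated STAT4 start sites had a match to TTCNNGAA in the 250 bases before them (chr2:191151128-191151159 and chr2:191151627-191151658, minus strand, RefSeq, GRCh38.p14), printed with flanks and the match in capitals.
STAT4, downstream start site: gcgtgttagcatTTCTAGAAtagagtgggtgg
STAT4, upstream start site: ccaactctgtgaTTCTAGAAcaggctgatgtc

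**Figure D1:**
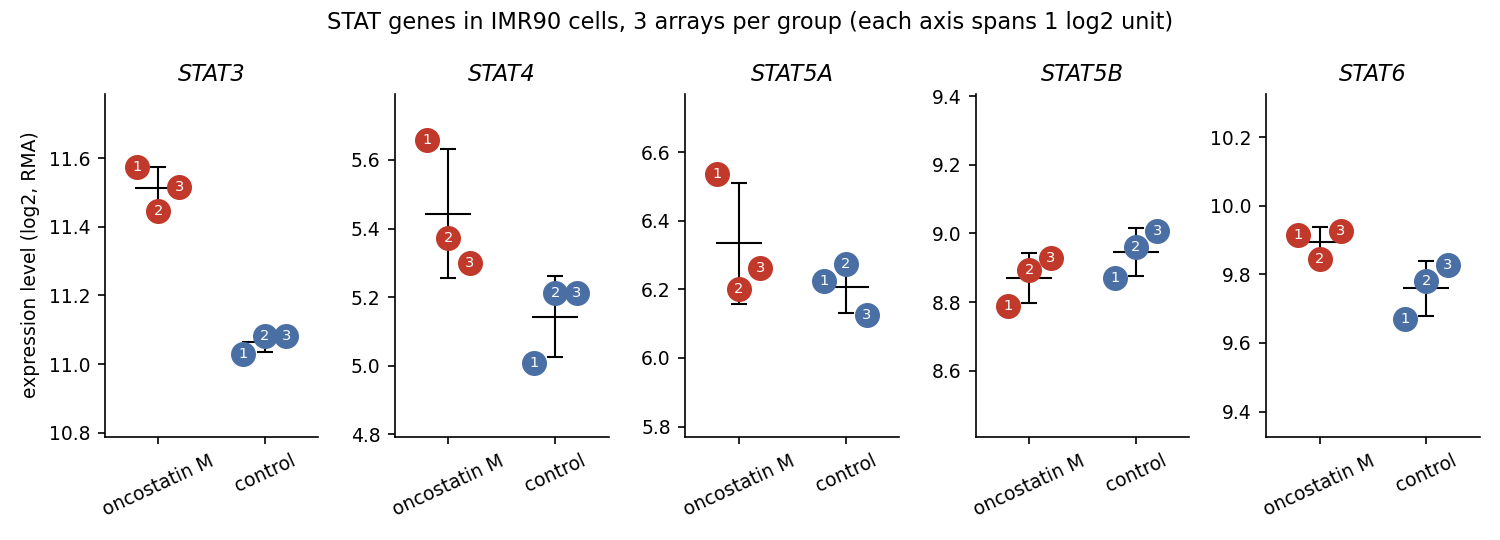
Expression level (log2, RMA) of the 5 STAT genes in each sample, oncostatin M in red and control in blue, with the replicate number in each point, the mean as a horizontal line and the SD as a bar. STAT3 is separated by a gap of 0.36, STAT4 and STAT5A are highest on oncostatin M 1, and the groups of STAT5A and STAT5B overlap.

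**Figure D2:**
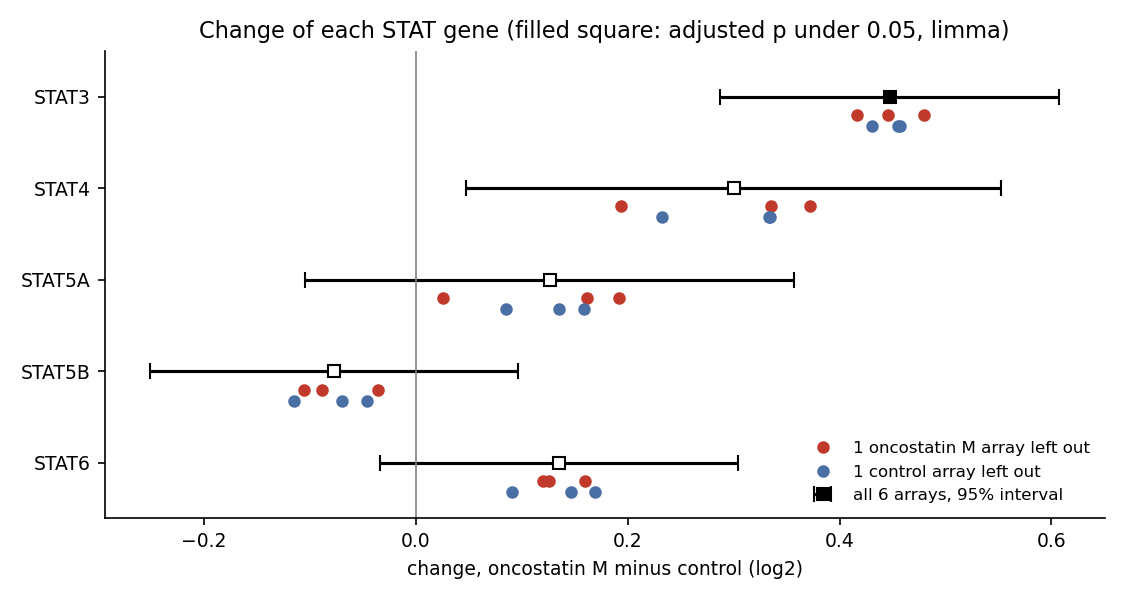
Change of each STAT gene (oncostatin M minus control, log2) with its 95% confidence interval (squares, filled where adjusted p was under 0.05 in limma) and the change with 1 array left out (points). The STAT3 points stay between 0.42 and 0.48, while those of STAT5A reach down to 0.03.

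Whether STAT3 moved more than the other members was asked on each array, as the log2 ratio of STAT3 to each of them, in 4 pairs. STAT3 minus STAT5B was 2.79, 2.55 and 2.59 in oncostatin M samples and 2.16, 2.12 and 2.07 in control samples. These did not overlap, and the ratio was higher by 0.52 after oncostatin M. The same held for STAT3 minus STAT6, which ran from 1.59 to 1.66 in oncostatin M samples and from 1.26 to 1.36 in control samples, higher by 0.31. STAT3 minus STAT5A ran from 5.04 to 5.25 in oncostatin M samples and from 4.81 to 4.96 in control samples, higher by 0.32. STAT3 minus STAT4 overlapped, from 5.92 to 6.22 in oncostatin M samples and from 5.87 to 6.02 in control samples, with a difference of 0.15 and a 95% confidence interval of -0.07 to 0.37, which includes 0. An exact permutation test over arrays, two-sided, gave p = 0.1 for the pairs with STAT5A, STAT5B and STAT6 and p = 0.2 for that with STAT4 (0.133 and 0.2 after adjustment over the 4 pairs). With 3 arrays against 3, 0.1 is the smallest p that this test can give. When the 4 ratios were fitted with limma beside all genes, the ratio to STAT5B passed (adjusted p = 0.0124), while those to STAT6 (0.0516), STAT5A (0.119) and STAT4 (0.712) did not. Ratios between probe sets compare changes and do not compare amounts of the transcripts. The means of STAT4 and STAT5A lay below the bound of silent genes in each group. The ratios to these 2 genes therefore cannot show that they changed less than STAT3.

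**Figure D3:**
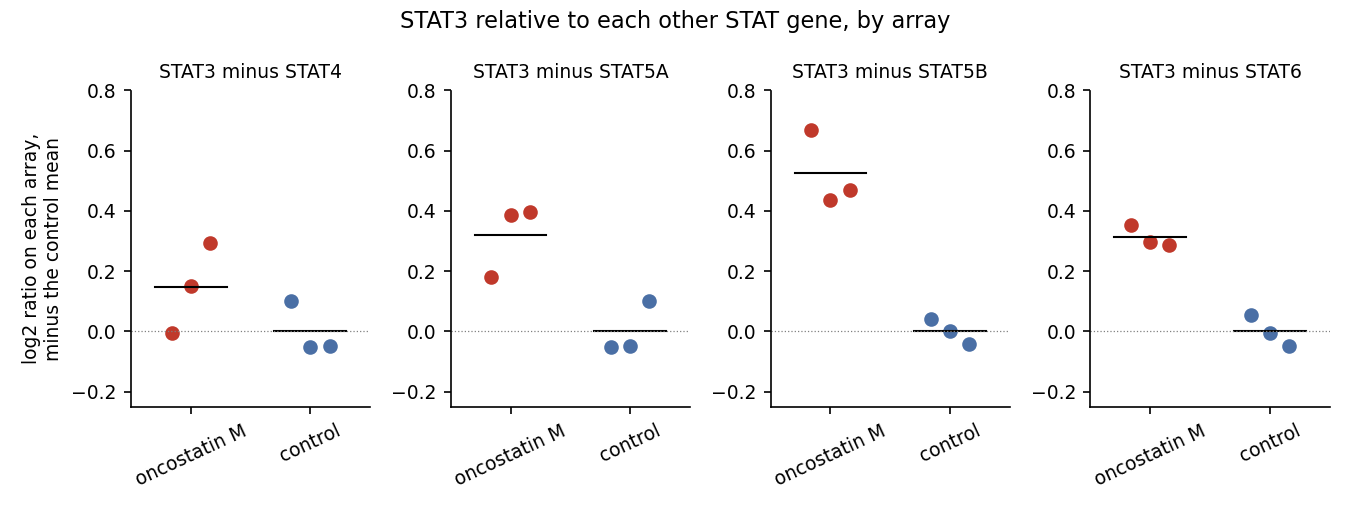
Log2 ratio of STAT3 to each other STAT gene on each array, set to 0 at the control mean (points: arrays; lines: group means). The oncostatin M arrays stand above the control arrays for the ratios to STAT5A, STAT5B and STAT6, and overlap with them for STAT4.

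The genes whose profile over the 6 arrays was most like that of STAT3, among genes spanning at least 0.5 on the log2 scale, were FAM20C (Pearson r = 0.993), a kinase of secreted proteins, DHRS3 (0.992), a retinal reductase, and C1RL (0.992), a protease related to complement C1r. These 3 rose by 0.94, 0.69 and 1.08 (limma adjusted p = 0.000746, 0.0024 and 0.000551). For STAT4 the closest were MX2 (0.995), an interferon-induced GTPase, ACVRL1 (0.989) and RCAN2 (0.984), and for STAT5A METRN (0.998), GALR3 (0.997) and GP2 (0.997), none of which passed the test. For STAT5B they were BIVM (0.989), USP27X (0.989) and ANKRD18B (0.978), and for STAT6 CABLES1 (0.976), C5AR2 (0.952) and the olfactory receptor OR4N2 (0.947). None of these 6 passed either. Among members themselves, STAT5A and STAT5B ran opposite ways (r = -0.814), and STAT3 ran with STAT6 (0.854) and STAT4 (0.837). These correlations describe 6 arrays that share their 2 groups and 1 deviating array. The means of STAT4, STAT5A and MX2 lay below the bound of silent genes in each group. OR4N2 is itself among the genes taken as silent. Likeness that involves these genes therefore says little.

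The neighbour of STAT3 on its other side, CAVIN1, which encodes a coat protein of caveolae, was named after its values were seen. It measured 10.19, 10.18 and 10.35 in oncostatin M samples, against 10.53, 10.67 and 10.63 in control samples. It fell by 0.37 (SE 0.08, limma adjusted p = 0.0484), the reverse of STAT3, and lost its call in 6 of 6 fits that left out 1 array (adjusted p up to 0.195 without control 2). RAB5C, KCNH4, HCRT and GHDC beyond STAT5B, and ATP6V0A1, NAGLU and HSD17B1 beyond CAVIN1, differed by at most 0.10 in either direction, and none passed.

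Upstream of the STATs, 5 of 20 receptor subunits and JAK kinases were higher and none was lower, against 3.42% of all genes called. The list median was 0.10, beside 0.00 over all genes. This list and those below were chosen with earlier results of these data known. Their shares called are therefore no independent evidence. OSMR, the receptor subunit that binds oncostatin M with IL6ST, measured 12.15, 12.21 and 12.11 in oncostatin M samples, against 11.37, 11.34 and 11.33 in control samples, a rise of 0.82 (limma adjusted p = 0.000641). The kinase JAK2 rose by 0.48 (adjusted p = 0.0316), whereas JAK1, the kinase on which IL6ST signalling mainly relies, differed by -0.08 (0.822) and TYK2 by -0.18 (0.29). JAK2 lost its call in 5 of 6 fits that left out an array. Among receptors that feed STAT6, IL13RA1, which pairs with the interleukin-4 receptor, rose by 0.60 (adjusted p = 0.00959), and the decoy receptor IL13RA2 passed as well, with both group means within the range of silent genes, so that no size is given. IL4R itself differed by 0.45 without passing (0.0669). IL6R rose by 0.51 (0.00822). IL6R, IL13RA1 and IL13RA2 each lost their call without control 1, and without that array only 1 of the 20 passed. Over the whole array that fit called 156 genes higher and 105 lower, beside 316 and 314 with all arrays.

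Among 19 measured inhibitors of STAT signalling, 3 were higher and 1 was lower (median 0.05). These calls were 21.1% of the list, beside 3.42% of all genes. SOCS3, SOCS2 and USP18 stand again below among STAT3, STAT5 and ISGF3 targets, and OSMR and IL13RA2 among STAT3 and STAT6 targets. The list counts are therefore not separate from each other. SOCS3, the inhibitor that binds IL6ST and JAK kinases and is induced by STAT3, measured 9.59, 9.70 and 9.63 in oncostatin M samples, against 7.54, 7.62 and 7.59 in control samples. It rose by 2.06 (SE 0.07, limma adjusted p = 1.25e-05). SOCS2, an inhibitor of growth hormone signalling and a known target of STAT5, went the other way, with 8.30, 8.45 and 8.51 in oncostatin M samples, against 9.02, 9.17 and 9.11 in control samples. It fell by 0.68 (SE 0.08, adjusted p = 0.00386) and kept its call whichever array was left out. USP18, which dampens interferon receptor signalling at STAT2, rose by 0.71 (0.0116) and the tyrosine phosphatase PTPN1 by 0.34 (0.0398). SOCS1 (0.19), CISH (0.12) and the 4 PIAS genes (-0.18 to 0.09) did not pass. The list held 2 called genes without control 1 or control 2, and PTPN1 and USP18 lost their calls in 5 and 2 of 6 such fits. Without control 1 and control 2, 156 and 188 genes were higher over the whole array and 105 and 127 lower. None of 14 measured partners and coactivators passed in limma, beside 3.42% of all genes. IRF9, the partner of STAT2, was closest to the threshold (0.36, limma adjusted p = 0.0588). At an unadjusted p under 0.05, 3 of the 14 passed, beside 11.6% of all genes. Without oncostatin M 1, 3 passed after adjustment, in a fit that called 400 genes higher and 332 lower over the whole array, beside 316 and 314 with all arrays.

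Of 24 known STAT3 targets, 11 were higher and 1 was lower, with a median of 0.28. With all arrays 50% of the list was called, beside 3.42% of all genes. The count stayed between 10 and 13 whichever array was left out. The list was written with earlier results of these arrays known, so its count is no independent evidence of direction. Besides SOCS3 and OSMR, the largest rises were those of NNMT, which methylates nicotinamide (1.40), the kinase PIM1 (1.34), the transcription factor CEBPD (1.25), the AP-1 subunit JUNB (1.08) and the angiogenic factor VEGFA (1.00), with limma adjusted p between 0.000176 and 0.0038. NNMT measured 10.60, 10.61 and 10.56 in oncostatin M samples, against 9.28, 9.26 and 9.04 in control samples. BCL3, BCL6, CEBPB and HIF1A rose by 0.86, 0.62, 0.52 and 0.45. The member that fell was CCND1, which encodes cyclin D1, by 0.48 (adjusted p = 0.0138). FOS (0.14), MYC (0.12) and MCL1 (-0.00051) did not pass. HIF1A and CCND1 lost their calls in 5 and 4 of 6 fits that left out an array.

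Of 16 STAT5 targets, 2 were higher and 2 were lower (median 0.08), or 25% called beside 3.42% of all genes. BCL6, a transcriptional repressor, and PIM1 were the ones that rose, and both also stand in the STAT3 list. SOCS2 and CCND1 were the ones that fell, and CCND1 stands in the STAT3 list too. CISH, the classical STAT5 target, differed by 0.12 (limma adjusted p = 0.816). Of 17 STAT6 targets, 2 were higher and none was lower (median 0.12), or 11.8% called beside 3.42% of all genes. They were the adhesion molecule VCAM1, higher by 1.39 (limma adjusted p = 0.00614), and IL13RA2, and 0 passed without control 1. In that fit 156 genes were higher and 105 lower over the whole array, beside 316 and 314 with all arrays. The STAT6-dependent chemokines CCL26 and CCL11 did not pass, and their means lay within the range of silent genes. Of 12 STAT4 targets, only the interleukin-18 receptor gene IL18R1 passed (adjusted p = 0.0439, lost in 5 of 6 fits that left out an array), also at the level of silent genes, and the count was 0 without any 1 array but oncostatin M 1. Where the STAT4 count was 0 after leaving out an array, 156 to 252 genes were higher and 105 to 234 lower over the whole array. With all arrays the share of STAT4 targets called was 8.33%, beside 3.42% of all genes. IFNG and TBX21, the genes that define STAT4 output in T cells, did not pass. Both lay below the bound of silent genes in each group, so their values say little. Only 4 of 12 STAT4 targets and 7 of 17 STAT6 targets lay above that bound in each group.

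Of 24 ISGF3 targets, through which STAT2 acts, 5 were higher and none was lower, or 20.8% called beside 3.42% of all genes. Of the 24, 21 lay above 0, beside 50.2% of all genes, and the median was 0.22. Only 10 of the 24 lay above the bound of silent genes in each group. Marker lists with few genes above that bound leaned upward too. Above 0 lay 12 of 15 leukocyte, 7 of 8 endothelial and 6 of 10 epithelial markers (medians 0.03, 0.03 and 0.004). The count above 0 therefore says little by itself. IFITM1 measured 10.42, 10.51 and 10.26 in oncostatin M samples, against 9.16, 9.18 and 9.04 in control samples, a rise of 1.27 (limma adjusted p = 0.000322). IFI35, IFI6, USP18 and IFITM3 rose by 0.94, 0.73, 0.71 and 0.47. IFITM1 and IFITM3 belong to a family of related genes, which probes may not separate fully. IFITM2 of that family differed by 0.35 without passing (limma adjusted p = 0.0738). ISG15 (0.07, adjusted p = 0.923), a standard reporter of interferon, did not pass. MX1 (adjusted p = 0.217), whose groups did not overlap, and IFIT1 (0.482) did not pass either, and both lay below the bound of silent genes in each group, so their values say little. Without control 2 the count of called ISGF3 targets was 3, in a fit that called 188 genes higher and 127 lower over the whole array.

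**Figure D4:**
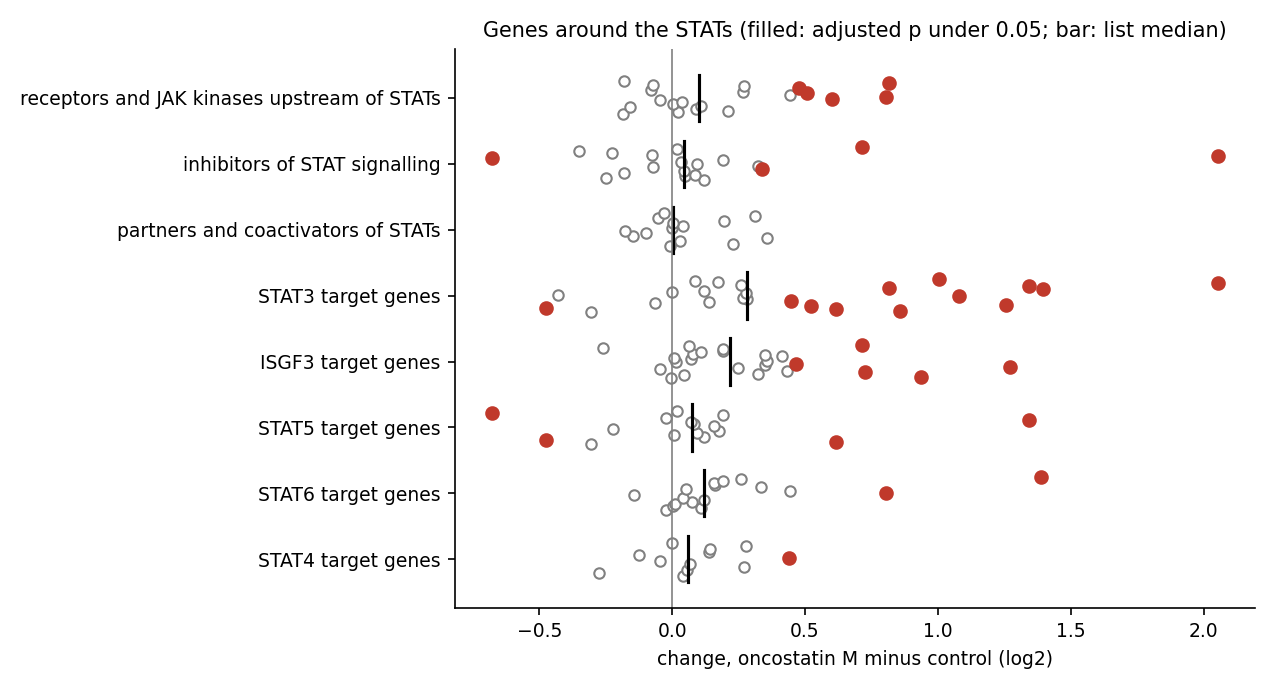
Change (oncostatin M minus control, log2) of each measured gene in 8 lists around the STATs, filled where adjusted p was under 0.05 in limma, with the list median as a bar. STAT3 targets have 12 filled points of 24 and partners and coactivators have 0 of 14, beside 3.42% of all genes past the threshold. The lists were chosen with earlier results of these data known.

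The promoters of ISGF3, STAT3, STAT5 and STAT6 targets and of the inhibitors were also searched for the core of the element that ISGF3 binds. That core is GAAA followed by any 2 bases and GAAA. It was sought on both strands in the same 250 bases, where its matches may overlap those of the TTC motifs. This core stood before 13 of 17 ISGF3 target genes with a RefSeq promoter (76.5%), compared with 3.71% of 27305 genes, and TTCNNNGAA stood before 6 of the 17 (35.3%, against 8.09%). Of 16 STAT3 targets with a promoter, 2 held TTCNNNGAA (12.5%), 3 held TTCNNGAA (18.8%, against 8.12%) and 0 held the ISGF3 core. A selection of matches before genes that passed the test is printed with flanks and the match in capitals, to set the motif forms side by side (RefSeq, GRCh38.p14). Others were found, among them TTCNNNGAA before IFITM1 and the ISGF3 core before IFI6 and IFITM3. The printed stretches lie at chr17:78361121-78361152 (minus strand) for SOCS3, chr3:187745476-187745508 (minus) for BCL6, chr11:313988-314021 (plus) for IFITM1 and chr17:43006750-43006782 (plus) for IFI35.
SOCS3, TTCNNGAA: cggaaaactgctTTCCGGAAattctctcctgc
BCL6, TTCNNNGAA: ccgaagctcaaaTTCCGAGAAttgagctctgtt
IFITM1, ISGF3 core: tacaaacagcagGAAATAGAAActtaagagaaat
IFI35, TTCNNNGAA: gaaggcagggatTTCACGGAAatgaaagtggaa
The SOCS3 match has the same spacing as that of STAT3 and covers bases 215 to 208 before the start site. Of the 13 ISGF3 targets with the ISGF3 core, 3 passed the test, and of the 4 with a promoter but without the core, 1 passed, beside 3.42% of all genes. These counts are too small to set the groups apart.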

How the data were processed

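Total RNA of 3 oncostatin M samples and 3 control samples of IMR90 cells was hybridised to 1 Affymetrix array each. The deposited values are log2 expression levels from RMA, which the authors ran, per the submitters' processing notes, in version 1.1 of Affymetrix Expression Console. Scanner files were not used here and the table holds no detection calls.

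Of 33297 probe sets, 19460 carried 1 gene symbol, 1754 several and 12083 none in the platform annotation, and 0 symbols needed updating. Where a gene had several probe sets (769 genes), the brightest was kept, which left 18417 genes. Groups were compared in R 4.3.3 by limma 3.58.1 (functions lmFit and eBayes, with Benjamini-Hochberg adjustment over the 18417 genes, threshold 0.05). The same model was run on simulated arrays with independent normal noise. Such arrays cannot represent a deviating array or replicates that differ by technical spread alone, so no result above rests on them. Log2 ratios of STAT3 to another member were compared with the exact permutation test and with limma. Precision is limited by having 3 arrays a group.

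The 95th percentile of 408 olfactory receptor and keratin-associated protein genes (6.77 in oncostatin M samples, 6.74 in control samples) served as a bound for silent genes. RefSeq promoters of the 5 members, 8 windows in all, were searched over 250 bases before the start site.

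Genes were named by rule: the members, up to 6 genes past the threshold with the largest change in each list, the receptors, kinases and inhibitors counted, and the 3 genes most like each member. Other list genes were named after their values were seen. The members and lists were chosen with earlier results of these data known. Alternatives covered normalization, array weights, the variance prior, probe set choice, removal of dim genes, the threshold, a replicate block and leaving out each array.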

Additional observations from a re-analysis of the deposited data

How the results depend on the processing

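The rise of STAT3 stayed between 0.44 and 0.45 under other normalizations, probe set rules, variance priors, the dim filter and array weights, with limma adjusted p between 0.000788 and 0.0495, the highest with a replicate block. At a threshold of 0.01 the change of 0.45 no longer passed, 0 STAT members did, and 175 genes were higher and 112 lower. Array weights gave 667 higher and 610 lower genes, beside 316 and 314. The weights of oncostatin M 1, 2 and 3 were 0.23, 1.17 and 3.22, so oncostatin M 3 counted most in its group. Those of control 1, 2 and 3 were 1.86, 0.72 and 0.87. On the ratios of STAT3 to STAT5B limma passed without weights (0.52), and with array weights those to STAT5A (0.40), STAT5B (0.46) and STAT6 (0.28) passed. The cause of these differences was not tested. With 1 array left out, 156 to 400 genes were higher (156 without control 1, 188 without control 2) and 105 to 332 lower (105, 127 and 136 without control 1, 2 and 3, 179 without oncostatin M 2), and 0 to 1 members passed. The STAT3 change ran from 0.42 to 0.48 in those fits, STAT4 from 0.19 to 0.37, STAT5A from 0.03 to 0.19, STAT5B from -0.12 to -0.04 and STAT6 from 0.09 to 0.17. The filter on dim genes removed STAT4 and STAT5A. The labels do not say whether replicate numbers pair the samples. Deviations of same-numbered arrays correlated at 0.0635, -0.456 and 0.511, which with 3 arrays a group cannot settle it. With the replicate block STAT3 kept its call (limma adjusted p = 0.0495) among 255 higher and 223 lower genes. Of 128 list counts under these settings, 101 stayed within 1.5 times. The changes of the 5 members and the 4 ratios kept their direction under each setting that gave them a value, and single list genes were not followed across settings other than leaving out an array. With 3 arrays a group, values within the range of silent genes, as for STAT4 and STAT5A, limit what can be read.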
